A study of Mus musculus with 6 samples.

Results

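Beta cells of the pancreatic islet are held in their identity by a small set of transcription factors, and 10 of their genes were followed here: Pdx1, Mafa, Nkx6-1, Nkx2-2, Isl1, Neurod1, Pax6, Foxa2, Insm1 and Rfx6. The members were every probe annotated with 1 of these symbols, which gave 14 probes of the 45259 usable probes on the array, for 10 of 22491 named genes. Of the 10 genes, 6 had 1 probe and 4 (Mafa, Nkx2-2, Pax6 and Foxa2) had 2, and the brighter probe, by its mean over the arrays, stood for such a gene. Of the genes, 5 (Neurod1, Pax6, Insm1, Nkx2-2 and Foxa2) lie on chromosome 2, Pdx1 and Nkx6-1 on chromosome 5, Rfx6 on 10, Isl1 on 13 and Mafa on 15.

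RNA came from islets of BALB/c mice aged 5 weeks that had been given control IgG or B29, a monoclonal antibody against the protease inhibitor serpin B13. Each mouse received 25 µg into the peritoneum 4 times on alternate days from 2 weeks of age (100 µg in all), and islets were taken 2 weeks after the last dose. Islets were sorted by diameter into classes under 100 µm, 100 to 200 µm and over 200 µm, and 1 Illumina bead array was run per antibody and class, 6 arrays in all. No genetic alteration was named for any group. The number of mice behind an array, their sex, and whether classes of an antibody share mice are not given in the sources used here. The p-values below for antibody thus rest on how well the size classes agree, and those for size on how well the antibodies agree. Both take each gene's spread in large part from the probes as a whole. Neither measures how well mice agree. The islets were whole and unsorted by cell type, so that in these bulk samples fewer cells of a type and less RNA per cell cannot be told apart.

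These factors act in sequence and then together. Foxa2 opens chromatin in the pancreatic endoderm, Insm1, Neurod1, Nkx2-2, Pax6, Isl1 and Rfx6 drive endocrine precursors into hormone-producing cells, and Pdx1, Nkx6-1 and Mafa maintain insulin transcription and glucose sensing in the mature beta cell. Several are shared with other islet cells: Isl1, Pax6, Neurod1, Insm1, Nkx2-2, Foxa2 and Rfx6 are also active in alpha cells, whereas Pdx1 is also found in delta cells.

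Between 14800 and 15914 probes were detected per array (32.7% to 35.2%), and median raw intensities of 73.7 to 76.6 lay close to the medians of the control rows (71.3 to 73.9). A probe counted as detected where the scanner's detection p was under 0.05, and 16774 probes detected on at least 2 of the 6 arrays entered the tests. All levels are the authors' log2 values, whose median was 4.29 on every array. Islet tissue was present on every array: Ins2, the insulin gene, stood at 14.20 on 5 arrays and at 13.97 on the B29 array under 100 µm, at the top of the scale where differences are compressed. Gcg (glucagon, alpha cells) ran from 13.65 to 13.97 and Sst (somatostatin, delta cells) from 12.65 to 13.42. Digestive enzyme genes of acinar cells were also bright, and the median level of the 28 tested genes of an acinar list was 12.62 (IgG) and 12.75 (B29) under 100 µm, 10.56 and 11.02 at 100 to 200 µm, and 9.999 and 6.47 over 200 µm. Of those 28 genes, 25 were detected on all 6 arrays, Amy1 being detected on 2.

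The factors fell into 3 bands of detectability. Detected on all 6 arrays were 8 of the 10 genes (Pdx1, Nkx6-1, Nkx2-2, Isl1, Neurod1, Foxa2, Insm1 and Rfx6). Mafa was detected on 4 arrays and Pax6 on none, so 9 genes, with 10 probes, were tested and Pax6 was not. Levels of different probes are not comparable, so the genes are described across arrays and not ranked against each other. None of the 9 genes passed limma's test for antibody or for size, and 0.00596% of all tested probes did for antibody (1 of 16774) and 0.531% for over 200 against under 100 µm (89 of 16774). At an unadjusted p under 0.05 the counts were 0 of 9 genes for antibody (4.67% of probes), 1 of 9 (Isl1) for over 200 against under 100 µm (10.4% of probes), 2 of 9 (Isl1 and Foxa2) for 100 to 200 against under 100 µm (5.96% of probes) and 0 of 9 for over 200 against 100 to 200 µm (4.83% of probes).

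**Figure D1:**
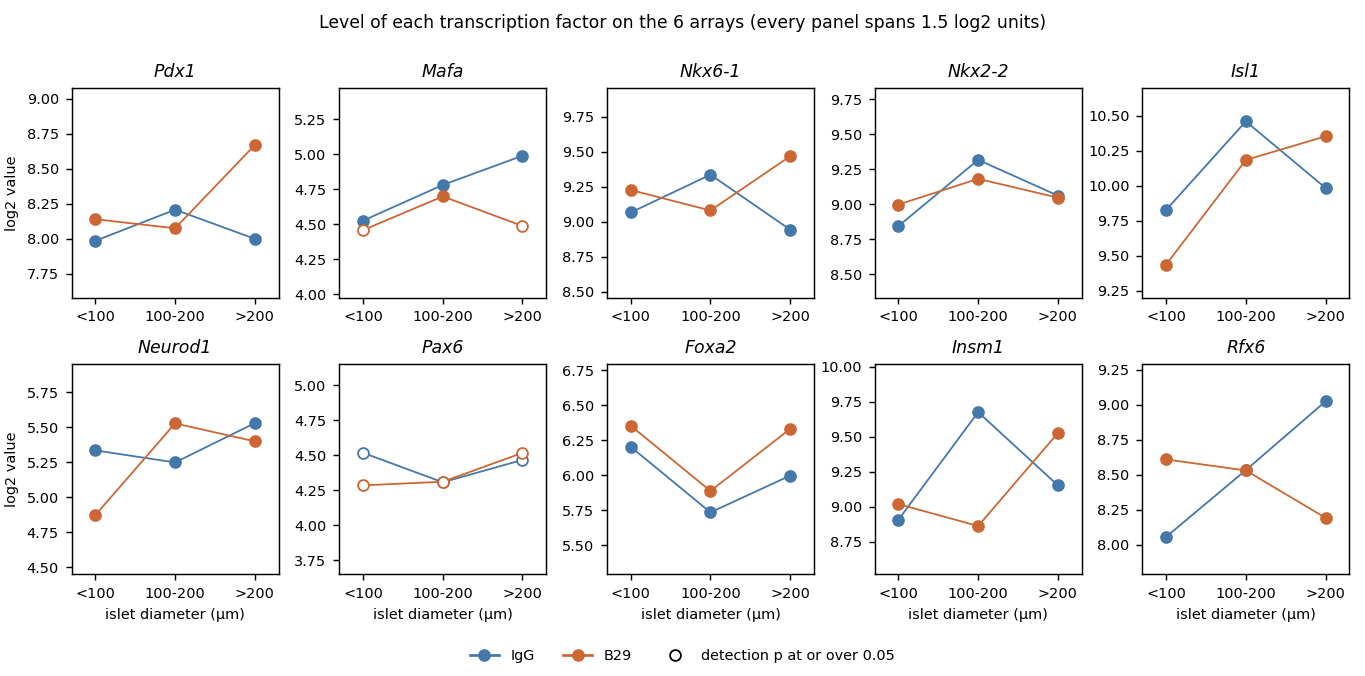
Log2 value (vertical axis, a different range in each panel but always 1.5 log2 units) of the highest-mean probe of each gene against islet diameter class, for IgG (blue) and B29 (orange), 1 array per point. Open points had a detection p of 0.05 or above: all 6 of Pax6 and 2 of Mafa, and the lines of Rfx6 cross while those of Foxa2 run in parallel.

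Pdx1 encodes the homeodomain factor that binds the insulin promoter and is needed to form the pancreas. Its promoter and that of Nkx6-1 are shown because the levels of this pair were the most alike among the factors across arrays. Those of Isl1 and Rfx6 are shown because these genes had the widest ranges. Each sequence is the RefSeq stretch of GRCm38.p6 from 250 bases before to 50 after the annotated start, 300 bases, read 5′ to 3′ on the gene's strand, at chr5:147269847-147270146 (plus strand), chr5:101664662-101664961 (minus strand), chr13:116309639-116309938 (minus strand) and chr10:51685268-51685567 (plus strand). Capitals mark matches, on either strand, to the E-box CANNTG, the sequence bound by Neurod1-type factors, to the homeodomain core TAAT, to the forkhead motif TGTTTAC, and to the Maf recognition core TGCTGAC.
Pdx1 promoter: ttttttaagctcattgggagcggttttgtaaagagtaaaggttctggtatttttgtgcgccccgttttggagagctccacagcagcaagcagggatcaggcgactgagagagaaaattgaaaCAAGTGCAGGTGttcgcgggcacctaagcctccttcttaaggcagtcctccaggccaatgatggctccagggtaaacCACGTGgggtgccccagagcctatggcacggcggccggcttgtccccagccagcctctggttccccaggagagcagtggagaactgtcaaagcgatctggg
Nkx6-1 promoter: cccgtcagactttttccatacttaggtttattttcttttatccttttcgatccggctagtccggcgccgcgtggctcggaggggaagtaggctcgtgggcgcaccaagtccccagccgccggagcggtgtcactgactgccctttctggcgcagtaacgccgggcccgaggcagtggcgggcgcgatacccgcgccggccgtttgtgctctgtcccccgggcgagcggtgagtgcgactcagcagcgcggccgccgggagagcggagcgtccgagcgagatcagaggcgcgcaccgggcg
Isl1 promoter: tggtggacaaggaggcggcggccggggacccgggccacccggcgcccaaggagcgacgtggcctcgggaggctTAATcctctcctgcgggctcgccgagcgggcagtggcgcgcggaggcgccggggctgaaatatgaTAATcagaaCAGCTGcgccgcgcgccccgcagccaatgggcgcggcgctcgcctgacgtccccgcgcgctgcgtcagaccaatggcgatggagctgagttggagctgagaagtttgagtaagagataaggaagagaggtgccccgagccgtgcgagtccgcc
Rfx6 promoter: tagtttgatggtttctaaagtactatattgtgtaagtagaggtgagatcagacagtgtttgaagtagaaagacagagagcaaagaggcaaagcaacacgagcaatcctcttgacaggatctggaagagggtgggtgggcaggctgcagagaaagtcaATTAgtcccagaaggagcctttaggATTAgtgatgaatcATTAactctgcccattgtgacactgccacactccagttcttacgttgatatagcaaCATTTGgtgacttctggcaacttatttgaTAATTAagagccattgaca
The Pdx1 stretch held 3 E-boxes, of which 2 abut, and 0 TAAT cores. In Nkx6-1 there were 0 matches to any of the 4 motifs, in Isl1 1 E-box and 2 TAAT cores, and in Rfx6 1 E-box and 5 TAAT cores, 2 of which overlap on opposite strands. Among all 32851 promoter stretches of this length, 72.3% held an E-box, 58.0% a TAAT core, 3.65% the forkhead motif and 4.67% the Maf recognition core. A match is a run of letters only, and no binding was measured. In base composition the Rfx6 stretch had 42.3% G and C, against 55.3% for Pdx1, 67.3% for Nkx6-1, 69.0% for Isl1 and a median of 52.7% over all stretches. Promoter entries were found for 8 of the 10 genes (11 entries), and none was matched for Mafa or Insm1.

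The first comparison asked whether the factors that maintain the mature beta cell differed after B29. Pdx1 stood at 7.98 with IgG and 8.14 with B29 under 100 µm, at 8.21 and 8.07 at 100 to 200 µm, and at 7.999 and 8.67 over 200 µm. The B29 array over 200 µm was the highest of the 6, the other 5 lay within a narrow band, and the antibodies overlapped. The log2 ratio of B29 to IgG was thus 0.15, -0.13 and 0.67 by rising class, with a fitted mean of 0.23 (SE 0.17, limma adjusted p = 0.970), a 1.17-fold difference with a 95% interval from 0.898-fold to 1.53-fold.

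Nkx6-1, a homeodomain repressor that keeps beta cells from taking on other islet fates, gave 9.07 (IgG) and 9.23 (B29) under 100 µm, 9.34 and 9.08 at 100 to 200 µm, and 8.94 and 9.47 over 200 µm. Its lowest and its highest value were both from islets over 200 µm, and the antibodies overlapped. By class the ratios were 0.16, -0.26 and 0.53, in the same order of signs as those of Pdx1, with a fitted mean of 0.14 (SE 0.17, limma adjusted p = 0.970) and a 95% interval from 0.849-fold to 1.44-fold.

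Mafa, the basic leucine zipper factor that activates insulin transcription in mature beta cells, lay near background. Its brighter probe stood at 4.53 and 4.46 (IgG and B29) under 100 µm, 4.78 and 4.70 at 100 to 200 µm, and 4.99 and 4.49 over 200 µm, with raw intensities from 77.5 to 92.4. The B29 arrays under 100 and over 200 µm did not detect it (detection p 0.0534 and 0.0588), while all 3 IgG arrays did (0.00855 to 0.0449), with the IgG array over 200 µm the highest of the 6. B29 was lower in each class (-0.07, -0.08 and -0.50), and the fitted mean was -0.22 (SE 0.14, limma adjusted p = 0.970, 95% interval 0.686-fold to 1.08-fold). Undetected values were also replaced by the dimmest level still called detected on their array. Mafa was then 1.04-fold lower with B29 under 100 µm and 1.37-fold lower over 200 µm. Each is 1 array against 1 and takes no account of noise. Under 100 µm the detection p lay close to 0.05 on both arrays (0.0449 with IgG and 0.0534 with B29). The second Mafa probe was not detected on any array, with levels from 4.13 to 4.28.

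Among the factors of endocrine differentiation, Nkx2-2, a homeodomain repressor and activator needed for beta cells to form, differed least. Its brighter probe read 8.84 (IgG) and 8.998 (B29) under 100 µm, 9.32 and 9.18 at 100 to 200 µm, and 9.06 and 9.05 over 200 µm. The values of each class lay apart from those of the other classes while the antibodies overlapped, and the fitted ratio of B29 to IgG was 0.0011 (SE 0.13, limma adjusted p = 0.999, 95% interval 0.812-fold to 1.23-fold). The second Nkx2-2 probe, far dimmer but detected on all 6 arrays, disagreed in pattern: its ratios were -0.53, -0.20 and 0.42 by class, with a fitted mean of -0.10 (SE 0.18).

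Isl1, a LIM-homeodomain factor of all islet endocrine cells, stood at 9.83 (IgG) and 9.44 (B29) under 100 µm, 10.46 and 10.18 at 100 to 200 µm, and 9.98 and 10.35 over 200 µm. Both small-islet arrays lay below the other 4, and within the classes B29 was lower under 100 µm and at 100 to 200 µm and higher over 200 µm. The ratios were -0.39, -0.28 and 0.37, and the fitted mean was -0.10 (SE 0.17, limma adjusted p = 0.983, 95% interval 0.714-fold to 1.22-fold). Over 200 µm the raw intensities of Isl1 were 1203 with IgG and 1136 with B29, the opposite order.

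Neurod1, the basic helix-loop-helix factor that follows Neurog3 in endocrine precursors, was dim, with raw intensities from 84.3 to 111, although detected on all arrays. It read 5.34 (IgG) and 4.87 (B29) under 100 µm, 5.25 and 5.53 at 100 to 200 µm, and 5.53 and 5.40 over 200 µm. The B29 array under 100 µm was the lowest, and the sign of the ratio varied between classes (-0.46, 0.28 and -0.13), with a fitted mean of -0.10 (SE 0.16, limma adjusted p = 0.981, 95% interval 0.719-fold to 1.20-fold).

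Pax6, a paired-domain factor of all islet endocrine cells, was not detected by either of its probes on any array. The first ran from 4.28 to 4.52 with detection p from 0.0502 to 0.187 and the second from 4.18 to 4.28 with detection p from 0.184 to 0.729. Pax6 was therefore left without a comparison, and its absence from the counts says only that these probes were not above background.

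Insm1, a zinc finger factor needed for endocrine cells to acquire their granules, read 8.91 (IgG) and 9.02 (B29) under 100 µm, 9.68 and 8.86 at 100 to 200 µm, and 9.15 and 9.53 over 200 µm. At 100 to 200 µm its highest value (IgG) and its lowest (B29) faced each other, and the antibodies overlapped over the 6 arrays. It was 1.76-fold lower with B29 at 100 to 200 µm (log2 ratio -0.81), against ratios of 0.11 and 0.37 under 100 and over 200 µm. In raw intensity, over 200 µm, Insm1 read 706 with IgG and 680 with B29, the opposite order. The fitted mean was -0.11 (SE 0.21, limma adjusted p = 0.987, 95% interval 0.660-fold to 1.30-fold). On the same pair of arrays some genes of immune cells also differed. Of 6 genes of the B cell list with a probe, the immunoglobulin genes Igk-C and Igh-6 and the receptor gene Cd79b had ratios of 4.33, 2.84 and 1.77. Only Igk-C and Cd79b, 2 of the 6, were detected on enough arrays to be tested. Ms4a1, Pax5 and Blnk, also B cell genes, were not detected on any array (ratios from 0.05 to 0.07). Among 10 tested macrophage genes the median ratio was 0.21, with the lysozyme genes Lyz1 and Lyz2 at 1.82 and 1.23. The part of these cells in the Insm1 ratio was not tested.

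Rfx6, a winged-helix factor required for islet formation and for beta cell function, had the widest spread of antibody ratios. It stood at 8.06 (IgG) and 8.61 (B29) under 100 µm, 8.53 with both at 100 to 200 µm, and 9.03 and 8.19 over 200 µm. With IgG the level was higher in each larger class, with B29 it was lower in each larger class, and the values of the antibodies overlapped. The ratio was 0.55 under 100 µm, -0.0023 at 100 to 200 µm and -0.83 over 200 µm, where Rfx6 was 1.78-fold lower with B29. The fitted mean was -0.09 (SE 0.23, limma adjusted p = 0.992, 95% interval 0.650-fold to 1.35-fold).

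Foxa2, the forkhead factor that opens chromatin for the others, gave 6.20 (IgG) and 6.35 (B29) under 100 µm, 5.73 and 5.89 at 100 to 200 µm, and 6.00 and 6.33 over 200 µm. B29 was higher than IgG in every class, although the values of the antibodies overlapped across classes. The ratios were 0.15, 0.15 and 0.33, the closest to each other among the 9 genes, and the fitted mean was 0.21 (SE 0.13, limma adjusted p = 0.970, 95% interval 0.945-fold to 1.42-fold). The second Foxa2 probe was not detected on any array.

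**Figure D2:**
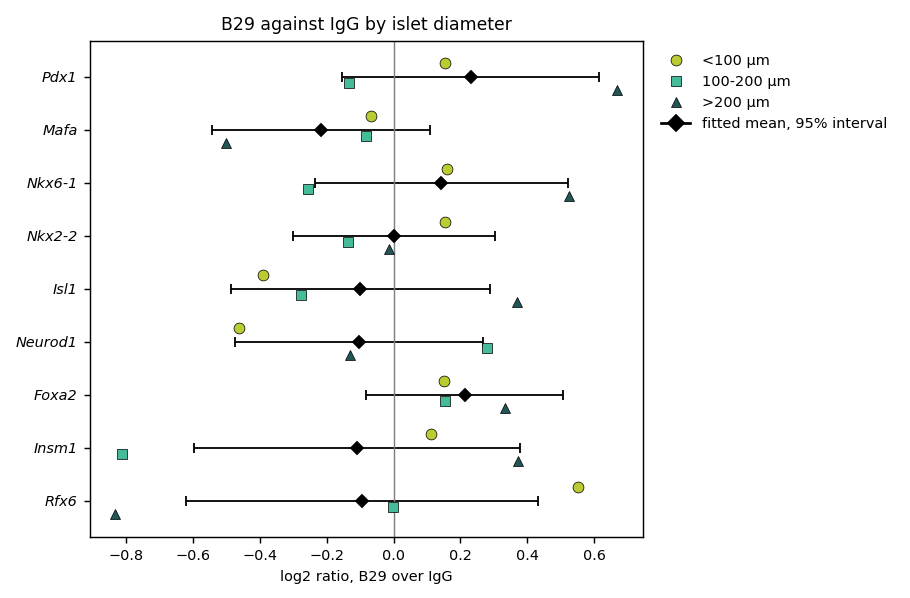
Log2 ratio of B29 to IgG (horizontal axis) for the 9 tested genes in islets under 100 µm (circles), of 100 to 200 µm (squares) and over 200 µm (triangles), 1 array against 1 each, with limma's fitted mean and its 95% interval (black). Every interval holds 0, Foxa2 lies to the right of 0 and Mafa to the left in all 3 classes, and the points of Rfx6 run from 0.55 to -0.83.

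Set side by side, 4 of the 9 genes had a fitted ratio of B29 to IgG above 0 (49.9% of all tested probes), and their median was -0.09 against -0.00042 over all tested probes. The direction was the same in all 3 classes for Mafa (lower, as in 13.0% of probes) and Foxa2 (higher, as in 12.4% of probes), 2 of 9 genes, where 25.5% of all tested probes kept 1 direction. Opposite signs in a pair of classes, with at least a 2-fold gap between the ratios, were seen for Insm1 and Rfx6, 2 of 9 genes (5.29% of probes). For none of the 9 genes did the 3 B29 arrays lie all above or all below the 3 IgG arrays, which 9.11% of probes did. The median of the 9 genes turned to 0.046 without the islets under 100 µm and to 0.070 without those of 100 to 200 µm.

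Within a class there was 1 array against 1 and no test, so differences of at least 1.5-fold were counted among probes detected on either array. Under 100 µm 0 of 9 genes were that far apart (6.29% of probes), although Rfx6 at 1.47-fold higher with B29 and Neurod1 at 1.38-fold lower came nearest. At 100 to 200 µm 1 of 9 was, Insm1 (3.57% of probes), and 2 of the 9, Neurod1 and Foxa2, were higher with B29 by any amount (47.7% of probes). Over 200 µm 2 of 9 were, Pdx1 at 1.59-fold higher and Rfx6 at 1.78-fold lower with B29 (6.24% of probes), and Nkx6-1 stood at 1.44-fold higher. Their raw intensities (IgG, then B29) were 345 and 407 for Pdx1, 623 and 658 for Nkx6-1, and 656 and 311 for Rfx6. The Pdx1 and Nkx6-1 differences were thus smaller before background correction and scaling. On the pair over 200 µm the acinar list also had a median log2 ratio of -3.06. The pan-endocrine list, 17 tested genes mostly of the secretory machinery of islet endocrine cells, had one of 0.070. Their part in the Pdx1, Nkx6-1 and Rfx6 ratios was not tested. No factor was 2-fold apart in any class, where 0.596% of probes under 100 µm, 0.475% at 100 to 200 µm and 0.925% over 200 µm were.

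The sorting by diameter allowed large islets to be set against small ones over both antibodies. From under 100 to over 200 µm, 8 of the 9 genes had a fitted ratio above 0 (53.1% of all tested probes), with Foxa2 the exception, and none passed. Their median log2 ratio was 0.27, against 0.016 over all tested probes, and 6 of the 9 (Pdx1, Mafa, Nkx2-2, Isl1, Neurod1 and Insm1) were higher with both antibodies (30.2% of probes). Over the same arrays all 28 tested acinar genes were lower in the large islets, 17 of them past the threshold, with a median of -4.48. The part of this difference in acinar RNA in the ratios of the factors was not tested. When each array was centred on the pan-endocrine list, which moved the median of all tested probes from 0.016 to -0.11, the factors' median was 0.15 with 7 of 9 above 0.

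Isl1 had the highest ratio. It was higher over 200 than under 100 µm by 0.16 with IgG and by 0.92 with B29, where the difference was 1.89-fold. The fitted mean was 0.54 (SE 0.21, 1.45-fold, 95% interval 1.04-fold to 2.01-fold, unadjusted p = 0.0308, limma adjusted p = 0.413). From under 100 to 100 to 200 µm Isl1 was higher by 0.63 with IgG and 0.75 with B29, with a fitted mean of 0.69 (SE 0.21, 1.61-fold, 95% interval 1.16-fold to 2.24-fold, unadjusted p = 0.00957, limma adjusted p = 0.569). The ratio over 200 µm rested on the B29 array, without which it was 0.19 (0.89 without the IgG array of that class and 0.32 without the B29 array under 100 µm), whereas that at 100 to 200 µm ran from 0.47 to 0.91 as single arrays were left out.

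Foxa2 went the other way in middle-sized islets. At 100 to 200 µm it was lower than under 100 µm by the same amount with either antibody (-0.47 with IgG and -0.47 with B29), with a fitted mean of -0.47 (SE 0.16, 0.723-fold, 95% interval 0.563-fold to 0.929-fold, unadjusted p = 0.0170, limma adjusted p = 0.659). Over 200 µm it was back near the small-islet level (-0.11, SE 0.16). The Foxa2 probe was dim, with raw intensities from 114 to 131. Its fitted ratio of 100 to 200 to under 100 µm ran from -0.51 to -0.25 under the alternative settings. Both Foxa2 values at 100 to 200 µm lay below the other 4, which 5.13% of tested probes also showed. Both Isl1 values under 100 µm and both Nkx2-2 values under 100 µm lay below the other 4 (10.1% of probes), and both Nkx2-2 values at 100 to 200 µm lay above them (5.13% of probes).

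The other ratios of over 200 to under 100 µm, 1 array against 1 per antibody, were spread around smaller fitted means. Rfx6 was 1.96-fold higher in large islets with IgG (0.97) and lower with B29 (-0.42), with a fitted mean of 0.28 (SE 0.28). Pdx1 stood at 0.01 with IgG and 0.53 with B29 (fitted 0.27, SE 0.21), and Nkx6-1 at -0.12 and 0.24 (fitted 0.06, SE 0.20). Insm1 (0.25 and 0.51; fitted 0.38, SE 0.26), Neurod1 (0.19 and 0.53; fitted 0.36, SE 0.20), Mafa (0.46 and 0.03; fitted 0.25, SE 0.18) and Nkx2-2 (0.22 and 0.05; fitted 0.13, SE 0.16) were above 0 with either antibody. Adjusted p ran from 0.600 to 0.956 for these 7 genes by limma, and the differences between antibodies in these ratios were not tested.

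**Figure D3:**
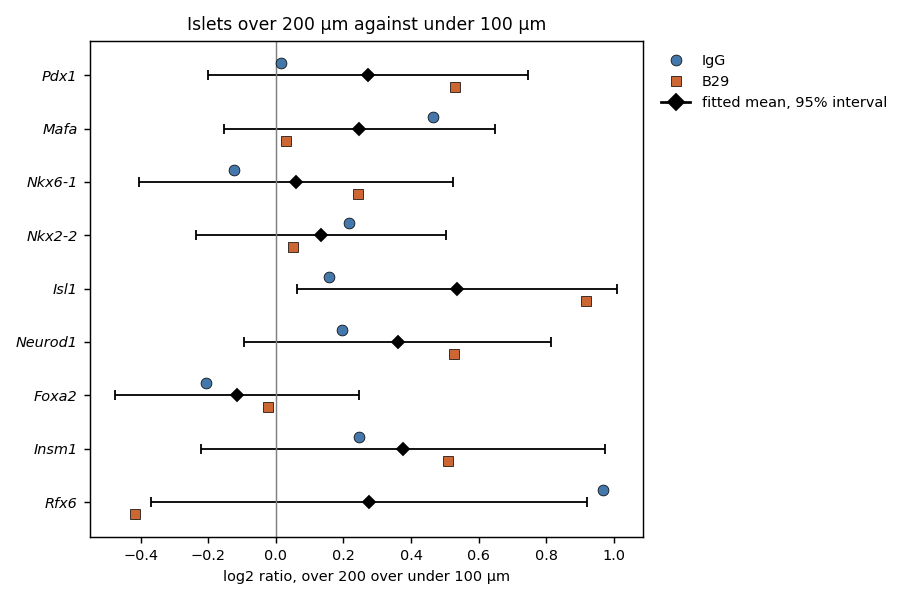
Log2 ratio of islets over 200 µm to islets under 100 µm (horizontal axis) for the 9 tested genes with IgG (circles) and B29 (squares), 1 array against 1 each, with limma's fitted mean and its 95% interval (black). The interval of Isl1 alone lies above 0, and Rfx6 has the points farthest apart, at 0.97 with IgG and -0.42 with B29.

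At 100 to 200 against under 100 µm, 8 of the 9 genes again had a fitted ratio above 0 (52.1% of probes) and 0 passed (0.0835% of probes), with a median of 0.25 against 0.010 over all tested probes. Only Mafa, Nkx2-2 and Isl1 were higher with both antibodies, 3 of 9 (27.1% of probes). Over 200 against 100 to 200 µm the factors were split, with 5 above and 4 below 0 (52.3% of probes above), a median of 0.071 and 0 of 9 passed (0.0% of probes). The 3 size comparisons share arrays and are not independent of each other. Without the IgG array at 100 to 200 µm, 5 of 9 were above 0 in place of 8 in the first of these. Without the B29 array over 200 µm, 6 of 9 were above 0 over 200 against under 100 µm, with a median of 0.15, and without the IgG array under 100 µm 7 of 9, with a median of 0.13.

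The 8 genes detected on all 6 arrays had ranges from 0.47 (Nkx2-2) to 1.02 (Isl1) on the log2 scale, with Rfx6 at 0.97 and Insm1 at 0.81 and a median of 0.67. All 12658 probes detected on all 6 arrays had a median range of 0.51, with quartiles at 0.38 and 0.68.

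The tested factors were then compared in pairs. Over the 6 arrays, which share their scaling and differ in acinar content, 21 of the 36 pairs of factors had a Pearson's r above 0, with a median of 0.16. Pdx1 and Nkx6-1 were the most alike (r = 0.887, n = 6), both being highest on the B29 array over 200 µm. Raw Nkx6-1 intensity was highest on the IgG array at 100 to 200 µm (750, against 658 on the B29 array over 200 µm). Nkx2-2 and Foxa2 were the least alike (r = -0.786, n = 6), and Mafa and Foxa2 followed (-0.738). With 6 points, and with Mafa, Neurod1 and Foxa2 near background, these values only describe the arrays. Whether the factors vary together was not tested.

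Among 4682 named genes detected on all 6 arrays with a range of at least 0.5, the closest patterns to each factor, by Pearson's r over the 6 arrays, were the following. Pdx1 was closest to Tle2 (0.991), a Groucho-family corepressor, and to Sacm1l (0.988), and Nkx6-1 to Lss (0.993), an enzyme of cholesterol synthesis, and Pmm2 (0.991). Isl1 ran with Pyy (0.977), a hormone gene of islet PP and other endocrine cells, and Sgcb (0.975). Insm1 ran with Pebp1 (0.986) and the synaptotagmin gene Syt9 (0.975), and Nkx2-2 with the thyroid hormone receptor gene Thra (0.989) and Ufd1 (0.972). Rfx6 was nearest to Washc3 (0.993) and 1500011B03Rik (0.974), Neurod1 to Bcap31 (0.991) and Gm13212 (0.991), Mafa to Cops5 (0.984) and Srsf1 (0.973), and Foxa2 to AW112037 (0.965) and Eif2ak1 (0.962). With 4682 genes searched over 6 arrays, these values are a description only.

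Genes that these factors are known to control in beta cells were described alongside them. Of 20 genes of beta cell function, 16 had a probe and 15 were tested. With B29, 4 had a fitted ratio above 0 (49.9% of all tested probes) and 11 below, with a median of -0.16, and 0 passed. The lowest were Nnat (-0.40), which encodes a peptide that aids insulin processing, and Ucn3 (-0.36), a peptide hormone gene of mature beta cells. The highest were the zinc transporter gene Slc30a8 (0.18) and the incretin receptor gene Gipr (0.09).

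In large against small islets all 15 were above 0 (53.1% of all tested probes), with a median of 0.21 against 0.016 over all tested probes. The 15 include Ins2, at the top of the scale, and Kcnj11, detected on 3 arrays. Iapp, the amyloid peptide secreted with insulin, passed: it was at 9.51 (IgG) and 9.35 (B29) under 100 µm, 9.75 and 9.70 at 100 to 200 µm, and 10.66 and 10.58 over 200 µm. Both large-islet arrays lay above all others, and Iapp rose by 1.19 (SE 0.16, limma adjusted p = 0.0185). With no background correction, with normexp offset 50 or with no detection filter, 0 probes passed this comparison, Iapp included. The part of the acinar difference between these arrays in the ratios of the 15 genes was not tested. The channel gene Trpm5 stood at 0.57 and the lowest were Kcnj11 (0.03) and Glp1r (0.10). Pan-endocrine genes, of which 17 of 20 were tested, had a median of 0.29 (13 above 0 and 0 passed), led by the carboxypeptidase gene Cpe (0.80, adjusted p = 0.0965) and the granule gene Chga (0.78, adjusted p = 0.111). With B29 they had a median of -0.07 (8 above 0 and 0 passed), from Rab3b (-0.45) and Scg3 (-0.28) to Meg3 (0.20) and Pcsk2 (0.25). The ratios in large islets lowest on that list were Gnas (-0.17) and Rab3a (-0.16). Among lists of other cells, delta and PP cell genes had a median of 0.57 in large islets (6 of 7 above 0). Fibroblast and stellate cell genes had 0.38 (10 of 11 above 0). Medians were 0.21 for macrophage, 0.11 for Schwann cell and neuron, and 0.05 for endothelial genes. They were -0.04 for duct, -0.07 for alpha cell and -0.13 for B cell genes.

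Other transcription factors of the endocrine lineage numbered 30, of which 26 had a probe and 15 were tested. Their median was -0.014 for B29 against IgG (7 above 0 and 0 passed) and -0.03 for over 200 against under 100 µm (6 above 0 and 0 passed). Neurog3, the factor of endocrine precursors, had the highest antibody ratio (0.63, SE 0.17, adjusted p = 0.966), followed by Etv1 (0.31), and the lowest were Prox1 (-0.40), a homeobox gene of pancreatic precursors, and Foxo1 (-0.31). By size Etv1 (0.52) and Myt1 (0.30), a zinc finger gene of endocrine differentiation, were highest and Prox1 (-0.32) and Gata6 (-0.23) lowest.

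Cofactors that bind or assist the factors were tested for 16 of 20 genes. Their median was -0.03 for B29 against IgG and 0.0050 for size, with 7 and 9 above 0 and 0 passed in either. By antibody they ran from Meis1 (-0.32), a homeodomain partner, and Ssbp2 (-0.13) to Ncoa6 (0.18) and Ldb1 (0.23), which bridges Isl1 to other proteins on DNA. By size they ran from Ncoa6 (-0.29) and Ldb1 (-0.23) to Ssbp2 (0.35) and Tcf12 (0.52), an E-protein that pairs with Neurod1-type factors.

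Genes known to be kept low in beta cells were tested for 5 of 10. Their median was -0.13 for B29 against IgG (2 above 0 and 0 passed), from Gpx2 (-0.35) and Ldha (-0.20), the lactate dehydrogenase gene, to Igfbp4 (0.28) and Oat (0.36). In large islets the median was -0.16 (1 above 0 and 0 passed), from Ldha (-0.44) and Oat (-0.34) to Gpx2 (-0.012) and Pdgfra (0.07).

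**Figure D4:**
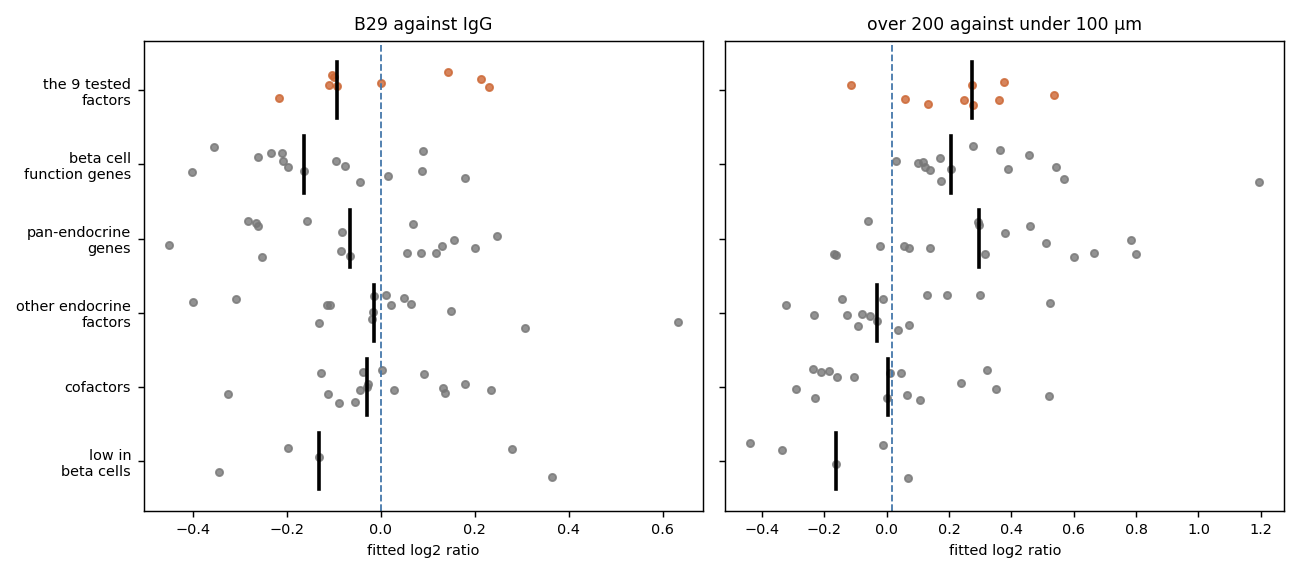
Fitted log2 ratio of B29 to IgG (left) and of over 200 to under 100 µm (right), both on the horizontal axis, for each tested gene of the factors (orange) and of 5 related lists (grey), with the vertical spread of points inside a row carrying no value. Black bars are list medians and the dashed line is the median of all tested probes. On the right the medians of the factors (0.27), beta cell function genes (0.21) and pan-endocrine genes (0.29) lie above the line, and those of the other lists shown lie near or below it.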

How the data were processed

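Biotin-labelled RNA of the islets was read on Illumina bead arrays for mouse, per the labels' protocols. For each array the deposited raw table gives every row's intensity with its detection p-value. It has 46255 rows, of which 974 are controls and 45281 probes, and 22 rows holding a word where a signal belongs were left out. Per the submitters' processing notes limma 3.34.9 was used, and the authors' second table is on the log2 scale. Its background correction and quantile normalization were read from the values, since neqc (limma 3.58.1, R 4.3.3, offset 16) applied to the deposited intensity values gave the authors' log2 values to within 0.00037.

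Probes with a detection p under 0.05 on at least 2 of 6 arrays (16774) entered 1 limma fit (lmFit and eBayes) with antibody and diameter class as additive factors. Residual degrees of freedom numbered 2 and prior ones 6.60. Benjamini-Hochberg adjustment ran over all tested probes, with a threshold of 0.05. Noise and any difference of the antibody ratio between classes both enter the residual spread. In each class, 1.5-fold differences were counted without a test. The number of arrays limits the precision. Slide and scan of the arrays are not given in the sources used here.

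Probe names came from the platform's annotation, updated through RefSeq (GRCm38.p6), and promoter sequences from RefSeq of the same assembly. No genome build is named for the files, so no gene positions are given beyond chromosomes and promoters. The fit was tested on simulated data. Of 1.5-fold differences put in, it recovered 58% for antibody and 16% for over 200 against under 100 µm. At 2-fold it recovered 100% and 92%. Of the calls, 9.6% and 7.8% were false. The simulated arrays held independent normal noise and no differences besides those put in, of up to 8-fold. Recovery in the real arrays, where 1 of 16774 probes passed for antibody, was not tested and can be lower. The 10 genes and all lists were chosen with earlier results of these data known. Besides the 10 genes, the 2 highest and 2 lowest ratios of each list and the 2 closest patterns per factor are named. The alternatives changed the scaling (cyclic loess, centring on the median or on pan-endocrine genes), backgrounds, detection filters, probe summaries and eBayes settings, a fit on 1 factor, acinar genes left out, and single arrays or pairs left out. The B cell genes, Lyz1, Lyz2, Ins2, Gcg, Sst and Amy1 are named as markers of their cells.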

Additional observations from a re-analysis of the deposited data

Results flagged for a closer look

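The B29 to IgG ratio of Insm1 was 0.37 over 200 µm and -0.81 at 100 to 200 µm, opposite in sign and 1.19 apart on the log2 scale. That of Rfx6 was 0.55 under 100 µm and -0.83 over 200 µm, which are 1.39 apart. Raw Insm1 intensity was lower with B29 in both classes: 680 against 706 over 200 µm, 605 against 932 at 100 to 200 µm. The positive Insm1 sign over 200 µm therefore depends on the background correction and scaling. Raw Rfx6 kept its signs, at 409 (B29) against 281 (IgG) under 100 µm and 311 against 656 over 200 µm. Opposite signs with at least a 2-fold gap between a pair of classes were seen for 2 of the 9 genes and for 5.29% of all tested probes. Each ratio is 1 array against 1, so these differences were not tested: with an interaction term the 6 arrays would leave nothing to estimate the spread from.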

How the results depend on the processing

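Replicate numbers could not form a block because each group has 1 array. The diameter class, which pairs the antibodies, was a term of the fit, and without it 0 probes in place of 1 were called for antibody. None of the 9 genes passed in any of the 4 comparisons under the 22 alternatives (adjusted p from 0.0791, Isl1 over 200 against under 100 µm without the IgG array over 200 µm, upward). The sign differed from that given in the report in 23 of 197 values for antibody, and in 5 of 179 (over 200 against under 100 µm), 5 of 179 (100 to 200 against under 100 µm) and 19 of 179 (over 200 against 100 to 200 µm) for size. The cause was not tested. For antibody, Nkx2-2, at 0.0011, became -0.0096 with cyclic loess, -0.054 with median centring, -0.0088 with pan-endocrine centring, -0.049 as the mean of its probes, -0.0051 with acinar genes left out and -0.075 without the islets under 100 µm. Without those islets Neurod1 became 0.075 and Isl1 0.046. Without the islets of 100 to 200 µm Insm1 became 0.24, and without those over 200 µm Nkx6-1 became -0.048 and Rfx6 0.28. With pan-endocrine centring Nkx6-1 became -0.063 over 200 against under 100 µm, and over 200 against 100 to 200 µm Neurod1 became -0.049, Rfx6 -0.049 and Insm1 -0.054. In that last comparison Insm1 was -0.013 with median centring, and Mafa was 0.0024 with cyclic loess, 0.072 with median centring, 0.0018 without background correction and 0.0047 with normexp.

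As single arrays were left out, the antibody ratio ran from -0.075 to 0.070 for Nkx2-2, -0.30 to 0.075 for Neurod1, -0.33 to 0.046 for Isl1, -0.35 to 0.24 for Insm1, -0.048 to 0.34 for Nkx6-1 and -0.42 to 0.28 for Rfx6. Over 200 against under 100 µm it ran from -0.28 to 0.83 for Rfx6, -0.23 to 0.35 for Nkx6-1 and -0.058 to 0.60 for Pdx1. At 100 to 200 against under 100 µm it ran from -0.29 to 0.68 for Rfx6, -0.24 to 0.36 for Nkx6-1, -0.19 to 0.35 for Pdx1, -0.22 to 0.83 for Insm1 and -0.0031 to 0.57 for Neurod1. Over 200 against 100 to 200 µm it ran from -0.21 to 0.36 for Neurod1, -0.30 to 0.30 for Nkx6-1, -0.14 to 0.52 for Pdx1, -0.46 to 0.60 for Insm1, -0.21 to 0.21 for Mafa, -0.50 to 0.20 for Isl1 and -0.48 to 0.63 for Rfx6. Where a group was left with no array, the class's other array was assumed to vary like the rest.

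The count of factors at least 1.5-fold apart under 100 µm, 0, became 1 with median or pan-endocrine centring. At 100 to 200 µm the 1 became 0 at 2-fold or with pan-endocrine centring. Over 200 µm the 2 became 0 at 2-fold and 1 with median centring or without background correction. Over all probes, calls for over 200 against under 100 µm ran from 0 (no background correction, normexp or no filter) to 224 (without the IgG array over 200 µm), for 100 to 200 against under 100 µm from 0 to 141, for over 200 against 100 to 200 µm from 0 to 61 and for antibody from 0 to 3. Probes near background, those of Mafa, Neurod1, Foxa2 and the dimmer Nkx2-2 probe, have compressed ratios.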
